A study of Mus musculus with 27 samples.

Results

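Temporal expression of 10 genes of the R-spondin branch of WNT signalling was examined among the 37991 genes quantified in mouse calvarial cells. The 10 genes were taken by name, by a rule that used no measured value but was set with earlier results of these data known: the secreted R-spondins Rspo1, Rspo2 and Rspo3, the R-spondin receptors Lgr4, Lgr5 and Lgr6, the ubiquitin ligases Znrf3 and Rnf43, and the WNT co-receptors Lrp5 and Lrp6. RNA sequencing profiles came from the skull vault of neonatal C57BL/6J-Col3.6 CFP mice, 5 to 9 days of age, which express a cyan fluorescent protein from a fragment of the collagen type I promoter active early in the osteoblast lineage. Cells released by enzyme digestion grew for 4 days, were sorted once for the fluorescent protein, and were then differentiated in ascorbic acid, 4 mM beta-glycerol phosphate and 10% fetal bovine serum. RNA was taken on 9 days, every other day from day 2 to day 18. Every group therefore shared the strain, the transgene, the sort and the medium, and differed in the day alone; no undifferentiated or untreated culture was analysed here.

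Each day had 3 profiles, which shared 1 barcode and were run on separate lanes. Over 63 combinations of gene and day, those with at least 30 counts, all of them whole numbers, the lanes agreed within sampling noise (chi-square test on counts, 0.996 per degree of freedom, p = 0.497). The study describes the profiles of a day as triplicate samples. They were counted here as 1 library a day, so the SD over lanes is read as technical, and the test of a trend rests on the scatter of 9 libraries about a fitted curve. A day held 22470195 (day 10) to 62009157 (day 12) counts, so that a gene with no count on a day lay below 0.0484 to 0.134 CPM (counts scaled to the library total), the level of 3 counts.

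WNT proteins signal through a Frizzled receptor together with the co-receptors LRP5 or LRP6, and the signal stabilises β-catenin. The membrane ligases ZNRF3 and RNF43 remove Frizzled receptors and LRP6 from the cell surface. R-spondins bind LGR4, LGR5 or LGR6 and one of these ligases at the same time, which clears the ligase from the membrane and leaves more receptor for WNT. Loss-of-function changes in LRP5 cause low bone mass in humans, and variants near RSPO3, LGR4 and LRP5 are known from genetic studies of bone density.

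Levels are given as TPM, the relative abundance of transcripts corrected for their length, after scaling each profile to a common upper quartile. On that scale the 4 families changed in different ways over the 16 days. The R-spondins had a summed level of 8.99 TPM on day 2, and their highest sum was 308 TPM, on day 16. The Lgr receptors summed to 17.5 TPM on day 2 and to 160 TPM on day 18, and the receptor with the highest level changed from Lgr4 to Lgr5. Lrp5 and Lrp6 together had 40.6 TPM at the start and 150 TPM at the end, whereas Znrf3 and Rnf43 together stayed between 3.82 and 5.94 TPM.

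**Figure D1:**
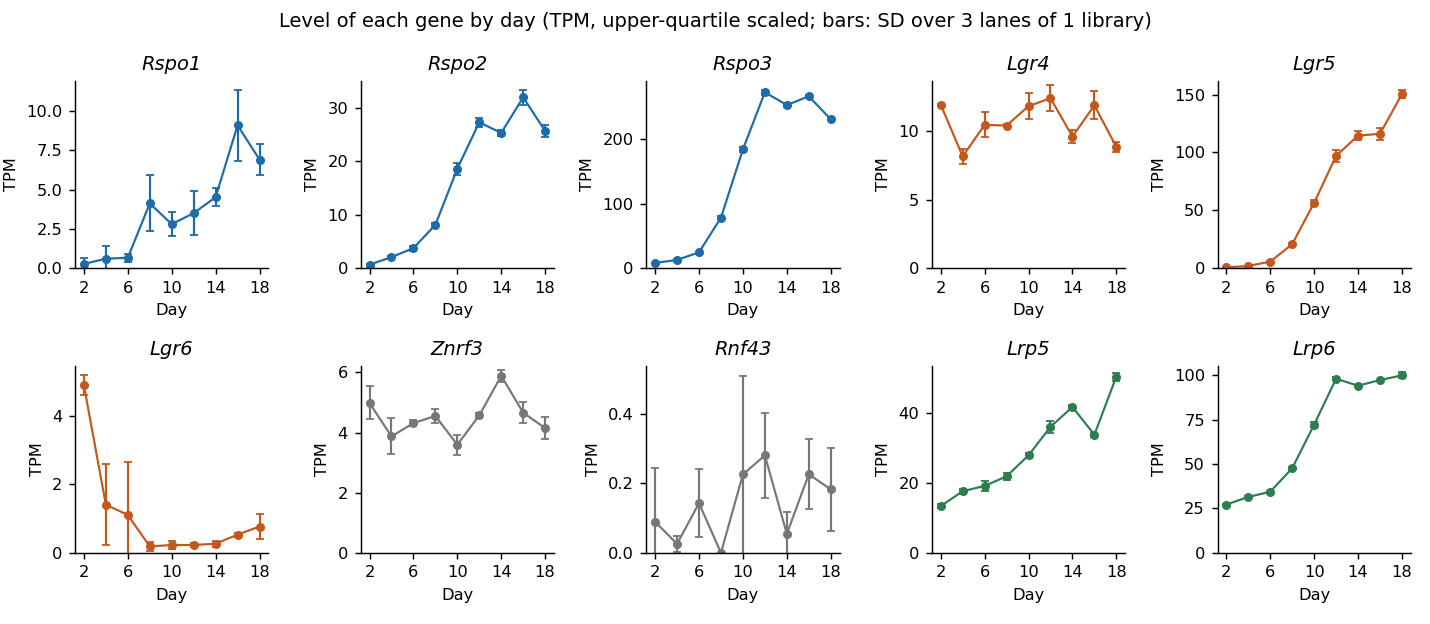
Level of each of the 10 genes (y axis, TPM after upper-quartile scaling, linear and from 0, a separate scale for each gene) against day of differentiation (x axis); points are means of 3 lanes of 1 library, bars the SD over lanes, cut at 0. Rspo2, Rspo3, Lgr5, Lrp5 and Lrp6 were lowest on day 2, Lgr6 was highest on day 2 at 4.90 TPM, and Lgr4 and Znrf3 were not called by either fit.

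A straight line in day was fitted to the counts of the 9 libraries, and its value over 16 days is given as the fitted log2 change (edgeR's quasi-likelihood test, Benjamini-Hochberg adjusted over 15659 genes). All 10 genes passed the filter on low counts. Of the 10, 6 rose, 1 fell and 3 were not called, whereas 28.3% of all genes tested rose, 26.1% fell and 54.3% were called in either direction. A spline in day, which allows a bend, called 7 of the 10 genes against 57.5% of 16256 genes. The median fitted log2 change was 2.30 over the 10 genes and 0.05 over all genes tested. Of 7 macrophage markers 6 also rose, as did all 5 adipocyte markers, with sums of 24.1 and 7.44 TPM on day 2 and of 2014 and 407 TPM on day 18, and their part in the result was not tested. In bulk RNA, fewer cells of a type and less RNA per cell cannot be told apart.

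**Figure D2:**
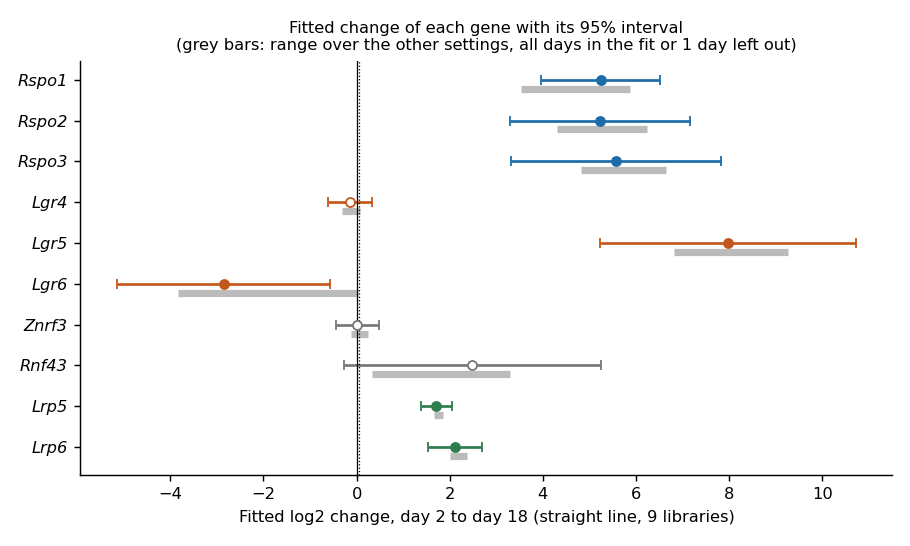
Fitted log2 change from day 2 to day 18 (x axis) for each gene (y axis), from a straight line through 9 libraries. Bars are 95% intervals, filled points passed an adjusted p of 0.05, and the dotted line is the median of all genes, 0.05. Grey bars give the range over the settings that kept all days or left a single day out. They leave out the fits to days 2 to 12 and to days 2 to 6 against days 14 to 18. Lgr5 had the highest value, 7.97, the 3 R-spondins lay between 5.22 and 5.57, Lrp5 and Lrp6 at 1.71 and 2.11, and the grey bar of Lgr6 reached 0.04.

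Rspo3 was the most abundant of the R-spondins on every day. The gene lies on chromosome 10 (NCBIM37, 29172915 to 29255673, minus strand). Its level in TPM was 8.09 ± 0.556 (day 2), 12.6 ± 1.27 (day 4), 24.5 ± 0.636 (day 6), 78.2 ± 2.34 (day 8), 184 ± 4.26 (day 10), 273 ± 3.93 (day 12), 253 ± 2.48 (day 14), 267 ± 1.50 (day 16) and 231 ± 1.38 (day 18) (SD over 3 lanes of 1 library). The level was higher on each successive day up to day 12 and stayed between 231 and 273 TPM thereafter, and no day overlapped in its lanes with the next day in order of level. The order of the late days depended on the unit. Day 16 was above day 12 in CPM (342 against 334) and in TPM before the scaling (251 against 246). The largest step was from day 6 to day 8, 1.66 on the log2 scale (pseudocount 0.5 TPM). For Rspo3 the fitted log2 change was 5.57 (SE = 1.01, adjusted P = 0.00108, edgeR's quasi-likelihood test, Benjamini-Hochberg). Rspo3 moved from the 57.7th percentile of all genes above 0 on day 2 to the 97.7th on day 18.

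Rspo2 had a similar course at a lower level. This gene (chromosome 15, 42852357 to 43002364, minus strand) encodes a ligand required for limb and lung development. Its level in TPM was 0.639 ± 0.174 (day 2), 2.05 ± 0.191 (day 4), 3.72 ± 0.462 (day 6), 8.08 ± 0.421 (day 8), 18.6 ± 1.13 (day 10), 27.3 ± 0.815 (day 12), 25.3 ± 0.514 (day 14), 31.9 ± 1.39 (day 16) and 25.6 ± 1.15 (day 18). Day 2 was the lowest and rested on 56 counts, and the lanes of days 12, 18 and 14 overlapped. Over the 16 days Rspo2 rose by 5.22 on the log2 scale (SE = 0.87, adjusted P = 0.000657, edgeR's quasi-likelihood test, Benjamini-Hochberg). The ratio of Rspo2 to Rspo3 within a library was 0.0791 on day 2, 0.162 on day 4 and 0.0999 to 0.152 on days 6 to 18. The log2 ratio had a slope of -0.15 over 16 days (exact permutation test over all orders of 9 days, two-sided, P = 0.666, adjusted over 4 ratios 0.666).

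Rspo1, whose loss in mice and humans alters sex determination, was measured on few counts. Its position is chromosome 4, 124663674 to 124686343, on the plus strand. The counts were 6, 10 and 12 on days 2, 4 and 6, then 38, 31, 133, 148, 225 and 184 on days 8 to 18. In TPM these were 0.261 ± 0.352, 0.600 ± 0.804, 0.657 ± 0.256, 4.12 ± 1.78, 2.80 ± 0.781, 3.50 ± 1.40, 4.52 ± 0.581, 9.10 ± 2.24 and 6.91 ± 0.960. The 3 early days lay below 1 TPM and the 6 later days above it, but the lanes of 6 of 8 neighbouring days in order of level overlapped. The effective length that the authors' quantification assigned to Rspo1 varied from 265 to 1555 bases between profiles, so the order of days depends on the unit: day 8 was above day 12 in TPM, and below it in CPM (1.28 against 2.14). The fitted log2 change in counts was 5.24 (SE = 0.58, adjusted P = 8.21e-05, edgeR's quasi-likelihood test, Benjamini-Hochberg).

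Rspo3 held 82.6% to 90.0% of the summed R-spondin TPM on each day. Rspo2 held 7.11% to 13.4% and Rspo1 1.15% to 4.55%. Rspo4, the R-spondin outside the 10 genes, had 11 counts in all 9 libraries together, was at most 0.0493 TPM and was below the filter. Most of the added R-spondin TPM was thus Rspo3.

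**Figure D3:**
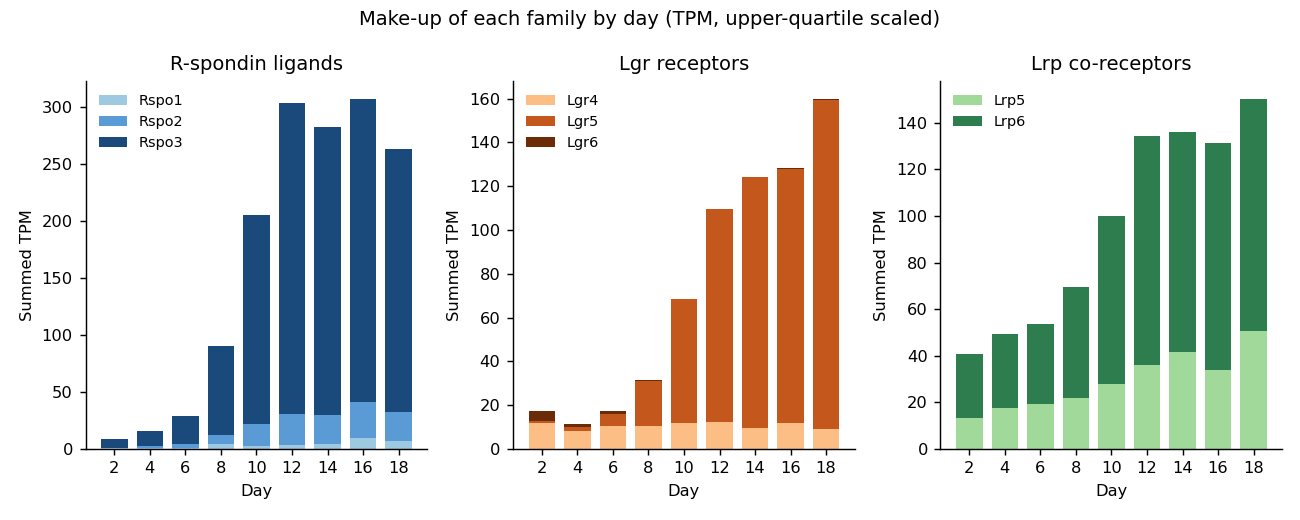
Summed level (y axis, TPM after upper-quartile scaling, bars from 0) by day (x axis) of the R-spondins, the Lgr receptors and the Lrp co-receptors, each bar divided into its genes. Rspo3 made up most of every R-spondin bar, Lgr5 went from 3.70% to 94.0% of the Lgr bar, and Lrp6 made up 64.1% to 74.2% of the Lrp bar.

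Among the receptors, Lgr5 had the largest fitted change of the 10 genes. Lgr5 (chromosome 10, 114887367 to 115024836, minus strand) is best known as a marker of stem cells of the intestinal crypt and the hair follicle. Its level in TPM was 0.646 ± 0.146 (day 2), 1.84 ± 0.331 (day 4), 5.58 ± 0.514 (day 6), 20.7 ± 1.42 (day 8), 56.4 ± 2.70 (day 10), 97.0 ± 5.02 (day 12), 115 ± 4.11 (day 14), 116 ± 5.08 (day 16) and 150 ± 3.60 (day 18). Day 18 was the highest, the order of levels followed the days throughout, and the lanes of days 14 and 16 alone overlapped. The ratio of day 18 to day 2 was 233 in TPM and 218 in CPM, from 62.28 to 14258 estimated counts. The line for Lgr5 gave a log2 change of 7.97 (SE = 1.24, adjusted P = 0.000442, edgeR's quasi-likelihood test, Benjamini-Hochberg). Lgr5 had whole-number counts in 4 of 27 profiles, since RSEM divided some of its reads with other transcripts; no exon of another annotated gene overlapped an exon of Lgr5 or of any of the other genes.

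Lgr4, which is widely expressed and whose loss delays bone formation in mice, was not called. It lies on chromosome 2 (109757804 to 109854414, plus strand). Its level in TPM was 11.9 ± 0.0798 (day 2), 8.16 ± 0.534 (day 4), 10.5 ± 0.907 (day 6), 10.4 ± 0.127 (day 8), 11.8 ± 0.927 (day 10), 12.4 ± 0.966 (day 12), 9.60 ± 0.499 (day 14), 11.9 ± 1.01 (day 16) and 8.84 ± 0.350 (day 18). Days 4 and 18 were the lowest and day 12 the highest, and the lanes of 7 of 8 neighbouring days in order of level overlapped. For Lgr4 the fitted log2 change was -0.13 with a 95% interval from -0.60 to 0.34 (adjusted P = 0.624, edgeR's quasi-likelihood test, Benjamini-Hochberg), and the spline gave an adjusted P of 0.306.

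Lgr5 stood below Lgr4 on days 2 to 6 and above it from day 8. The ratio of Lgr5 to Lgr4 within a library was 0.0542 (day 2), 0.225 (day 4), 0.534 (day 6), 1.99 (day 8), 4.77 (day 10), 7.82 (day 12), 11.9 (day 14), 9.77 (day 16) and 17.0 (day 18). This ratio was added after the levels of both genes had been seen. The log2 ratio had a slope of 7.98 over 16 days (exact permutation test over all orders of 9 days, two-sided, P = 1.1e-05, adjusted over 5 ratios 5.51e-05). Without day 2 the slope over 16 days was 6.93.

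Lgr6 had its highest level on day 2 and a low level from day 8 onwards. Lgr6 (chromosome 1, 136882925 to 137001853, minus strand) marks stem cells in the skin. From day 2 to day 18 its counts were 478, 66, 29, 12, 9, 25, 24, 54 and 50. In TPM these were 4.90 ± 0.291, 1.41 ± 1.18, 1.11 ± 1.55, 0.187 ± 0.141, 0.227 ± 0.131, 0.229 ± 0.0667, 0.265 ± 0.0941, 0.530 ± 0.0558 and 0.767 ± 0.362. Day 2 stood clear of every other day, the lanes of 6 of 8 neighbouring days overlapped, and 3 of 9 days reached 1 TPM. The effective length of Lgr6 varied from 526.5 to 3349 bases between profiles, and the lanes ranged from 0.658 to 2.77 TPM on day 4 and from 0.156 to 2.89 TPM on day 6. The order of days after day 2 thus depends on the unit. Day 6 was above day 18 in TPM, and below it in CPM (0.672 against 1.12).

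The fitted log2 change of Lgr6 was -2.85 (SE = 1.03, adjusted P = 0.0370, edgeR's quasi-likelihood test, Benjamini-Hochberg), and the spline, which follows the bend, gave an adjusted P of 1.12e-06. The line rested on day 2: without it the fitted change was 0.04 (adjusted P = 0.972, same test). Over days 2 to 12 alone the fitted log2 change was -4.83 (SE = 0.93, adjusted P = 0.00480, same test). The ratio of Lgr6 to Lgr4 was 0.411 on day 2, 0.0180 on day 8 and 0.0867 on day 18, and its slope on the log2 scale, -2.37 over 16 days, did not pass the test (exact permutation test, two-sided, P = 0.132, adjusted over 4 ratios 0.297).

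As shares of the summed Lgr level, Lgr4 had 68.3% on day 2, 33.3% on day 8 and 5.53% on day 18. Lgr5 had 3.70%, 66.1% and 94.0% on the same days. Lgr6 had 28.0%, 0.599% and 0.479%. On days 2 to 6 the Lgr sum lay between 11.4 and 17.5 TPM, and it was 31.3 TPM or more on each later day.

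**Figure D4:**
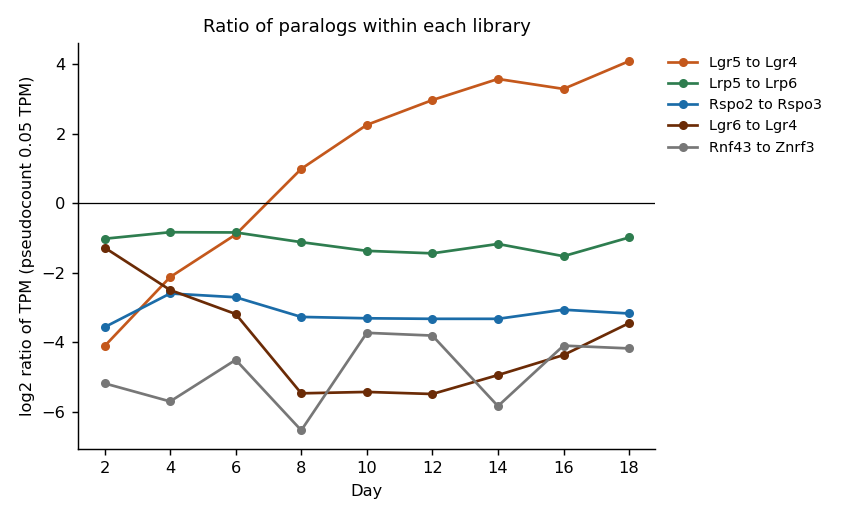
log2 ratio of TPM (y axis, pseudocount 0.05 TPM) of pairs of related genes within each library against day (x axis), 1 point a day; the line at 0 marks equal levels. The ratio of Lgr5 to Lgr4 crossed 0 between days 6 and 8, while Rspo2 to Rspo3 and Lrp5 to Lrp6 stayed below 0 on all 9 days.

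Of the ligases that R-spondins act on, Znrf3 lay between 3.60 and 5.89 TPM on all days and Rnf43 was close to the floor. Znrf3 (chromosome 11, 5176327 to 5344850, minus strand) had, in TPM, 4.98 ± 0.549 (day 2), 3.87 ± 0.596 (day 4), 4.31 ± 0.0998 (day 6), 4.55 ± 0.235 (day 8), 3.60 ± 0.338 (day 10), 4.57 ± 0.0847 (day 12), 5.89 ± 0.192 (day 14), 4.66 ± 0.340 (day 16) and 4.15 ± 0.359 (day 18). Day 14 was above the other days, and the lanes of the remaining 7 of 8 neighbouring pairs overlapped. The line for Znrf3 gave a log2 change of 0.02 with a 95% interval from -0.45 to 0.49 (adjusted P = 0.953, edgeR's quasi-likelihood test, Benjamini-Hochberg). A change of the size measured for Lrp5 lay outside that interval.

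Rnf43 (chromosome 11, 87476224 to 87549041, plus strand) had 82 counts in all. Its counts by day were 2, 2, 11, 0, 4, 27, 4, 18 and 14, and it stayed below 1 TPM on every day, with a highest level of 0.281 ± 0.122 TPM on day 12. On day 8 no read was assigned, which allows up to 0.101 CPM. The line for Rnf43 gave a log2 change of 2.49 with a 95% interval from -0.27 to 5.25 (adjusted P = 0.115, edgeR's quasi-likelihood test, Benjamini-Hochberg), so no straight-line trend was called. Znrf3 held 94.1% to 100% of the summed ligase TPM.

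The co-receptors both rose. Lrp6 (chromosome 6, 134396494 to 134516983, minus strand) had, in TPM, 27.2 ± 0.227 (day 2), 31.5 ± 0.251 (day 4), 34.4 ± 0.379 (day 6), 47.6 ± 0.858 (day 8), 72.2 ± 1.23 (day 10), 98.1 ± 0.717 (day 12), 94.1 ± 0.356 (day 14), 97.3 ± 0.252 (day 16) and 99.97 ± 1.69 (day 18). The level was higher on each successive day up to day 12, and the last 4 days lay within 94.1 and 99.97 TPM. Over the 16 days Lrp6 rose by 2.11 on the log2 scale (SE = 0.26, adjusted P = 0.000133, edgeR's quasi-likelihood test, Benjamini-Hochberg).

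Lrp5 (chromosome 19, 3584825 to 3686564, minus strand) had, in TPM, 13.4 ± 0.564 (day 2), 17.6 ± 0.725 (day 4), 19.2 ± 1.49 (day 6), 21.9 ± 1.03 (day 8), 27.9 ± 0.736 (day 10), 36.1 ± 1.81 (day 12), 41.8 ± 0.708 (day 14), 33.9 ± 0.555 (day 16) and 50.5 ± 1.17 (day 18). Day 16 was the one day on which Lrp5 was lower than 2 days before, and its lanes overlapped with those of day 12. Over the 16 days Lrp5 rose by 1.71 on the log2 scale (SE = 0.15, adjusted P = 2.58e-05, edgeR's quasi-likelihood test, Benjamini-Hochberg). Lrp6 was above Lrp5 on each day, with a ratio of Lrp5 to Lrp6 of 0.348 (day 16) to 0.561 (day 4). The slope of the log2 ratio, -0.39 over 16 days, did not pass the test (exact permutation test, two-sided, P = 0.149, adjusted over 4 ratios 0.297).

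Several of the 10 genes had nearly the same course over the 9 days, given here as Pearson's r of log2(TPM + 0.5), a description over 9 libraries that share their order in time. Rspo3 with Lgr5 had r = 0.994, Rspo2 with Lgr5 r = 0.993, Rspo2 with Rspo3 r = 0.993 and Lgr5 with Lrp6 r = 0.983. Rspo1, Rspo2, Rspo3 and Lgr5 were each first above the midpoint of their log2 range on day 8, and Lrp5 and Lrp6 on day 10. Lgr4 and Znrf3 had r between 0.07 and 0.21 with the R-spondins.

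Among 9780 other genes with a mean of at least 5 TPM, the courses most like Rspo3 were those of Meox2, a homeobox transcription factor (r = 0.999, 3.28 TPM on day 2 and 50.1 on day 18), and Col14a1, a fibril-associated collagen (r = 0.999, 1.17 and 161 TPM). Most like Rspo2 were Oxr1, which protects from oxidative damage (r = 0.999, 21.1 and 47.8 TPM), and Gas1, a membrane protein that binds hedgehog (r = 0.998, 8.21 and 269 TPM). Pearson's r takes no account of the size of a change, so a like course can span a smaller range. Nearest to Lgr5 were Chrdl1, a secreted antagonist of bone morphogenetic proteins (r = 0.998, 1.23 and 285 TPM), and Tmtc1 (r = 0.998). For Lrp6 they were Entpd2, an ectonucleotidase (r = 0.997), and Bmp4, a bone morphogenetic protein (r = 0.997, 19.1 and 164 TPM).

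Lrp5 was nearest to Acad11 (r = 0.995) and Hgsnat (r = 0.991). Rspo1 was nearest to Cdc37l1 (r = 0.981, 19.8 TPM on day 2 and 32.7 on day 18) and Gprc5c (r = 0.977, 2.66 and 31.7 TPM). Lgr6 was nearest to Pitpna, a phosphatidylinositol transfer protein (r = 0.987, 175 and 117 TPM), and Fez2 (r = 0.973, 55.8 and 25.5 TPM). The genes that were not called mostly had lower values, with Rps27 (r = 0.906) and Cox7a2l (r = 0.896) for Lgr4, Dgkz (r = 0.912) and Vps45 (r = 0.882) for Znrf3, and 1110051M20Rik (r = 0.966) and Cbr4 (r = 0.889) for Rnf43. With a pseudocount of 0.1 or 1 TPM, 12 of 20 such pairs of genes came out the same.

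Upstream sequence from RefSeq (GRCm38.p6) covered 4 of the 10 genes, Rspo1, Lgr4, Lgr6 and Rnf43. The 250 bases before the start are printed for Rspo1, which rose, and for the receptors Lgr4, which was not called, and Lgr6, which was highest on day 2; capitals mark each CG. The windows are chr4:124986180-124986429 (plus strand) for Rspo1, chr2:109917397-109917646 (plus strand) for Lgr4 and chr1:135105277-135105526 (minus strand) for Lgr6, each 5′ to 3′ in the direction of the gene.
Rspo1: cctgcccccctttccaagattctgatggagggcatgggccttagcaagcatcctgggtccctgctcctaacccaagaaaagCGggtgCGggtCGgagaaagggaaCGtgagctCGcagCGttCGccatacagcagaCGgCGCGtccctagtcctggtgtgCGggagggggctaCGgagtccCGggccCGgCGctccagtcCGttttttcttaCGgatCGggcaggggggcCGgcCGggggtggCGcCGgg
Lgr4: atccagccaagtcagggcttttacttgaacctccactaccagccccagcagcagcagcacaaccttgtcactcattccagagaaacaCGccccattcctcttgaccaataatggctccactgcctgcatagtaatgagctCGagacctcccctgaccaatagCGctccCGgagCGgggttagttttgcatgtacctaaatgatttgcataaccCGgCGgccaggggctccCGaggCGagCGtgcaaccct
Lgr6: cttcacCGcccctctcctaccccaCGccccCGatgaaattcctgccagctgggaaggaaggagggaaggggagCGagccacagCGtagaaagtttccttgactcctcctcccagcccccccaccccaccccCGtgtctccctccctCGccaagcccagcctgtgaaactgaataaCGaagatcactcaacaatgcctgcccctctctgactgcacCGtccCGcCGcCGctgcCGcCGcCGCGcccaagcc
Rspo1 had 22 CG and a GC content of 66.8%, Lgr6 16 CG and 65.2%, and Lgr4 10 CG and 55.6%, beside a median of 6 CG and 52.4% over 32851 promoters of the same length. The letters ATCAAAG of the TCF/LEF motif, ACCACA of the RUNX motif and TATAAA of the TATA box were searched on both strands, and none was in these 3 windows or in the windows of Rnf43. The same letters were in 3.21%, 14% and 12.4% of all promoters. The absence says only that these letters are not in this window. Rspo2, Rspo3, Lgr5, Znrf3, Lrp5 and Lrp6 had no entry.

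The other genes of the pathway are given by lists, tested by the same line in day with 28.3% of all genes rising and 26.1% falling. A call rests on a line through counts, so its direction can differ from the TPM of days 2 and 18. Of 16 tested Wnt receptors and receptor partners, 9 rose and 2 fell. Fzd1, the most abundant Frizzled, had 32.4 TPM on day 2 and 132 TPM on day 18 (fitted log2 change 1.98). Fzd9 had the largest rise of the list, 5.95, at no more than 2.93 TPM, and Fzd6 had the largest fall, -2.10, from 15.5 to 3.89 TPM.

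Of 12 tested Wnt ligands and secretion genes, 5 rose and 4 fell. Wnt16 was among those called higher (4.19), but in TPM it was 18.6 on day 2, its highest, 0.380 on day 4 and 6.27 on day 18. Wls, the carrier that WNT proteins need for secretion, had 53.4 TPM on day 2 and 81.5 TPM on day 18 and was not called. Ndp, which encodes the Frizzled-4 ligand norrin, had the largest rise (6.97, up to 1.44 TPM), and Wnt10b the largest fall (-4.88, from 2.10 to 0.162 TPM). Of 9 tested secreted antagonists, 6 rose and 1 fell. Sfrp2, a secreted protein that binds WNT, had both the largest rise and the highest level, 20.1 TPM on day 2 and 5024 TPM on day 18 (fitted log2 change 9.83), and Wif1 had a fitted log2 change of -2.97 at no more than 0.715 TPM.

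Inside the cell, 1 of 18 cytoplasmic transducers rose and 6 fell. Axin1 was among those called lower (-0.59), but in TPM it was 9.22 on day 2 and 17.97 on day 18. Ctnnb1, which encodes β-catenin, was not called (255 TPM on day 2, 301 TPM on day 18), Amer1 rose by 1.36 on the log2 scale and Csnk1g1 fell by 1.47. Of 8 nuclear effectors, 4 rose and 2 fell, with Pygo1 at 2.78, Lef1 at -2.62, and Tcf7l2, the most abundant, at 1.03 (40.3 TPM on day 2, 104 TPM on day 18). Tcf7l1 was among those called higher (1.16), but in TPM it was 51.3 on day 2 and 29.1 on day 18. Of 6 tested feedback targets of WNT signalling, 2 rose and 2 fell. Nkd1 had the largest rise (4.97, 0.792 to 8.99 TPM) and Myc the largest fall (-1.50). Ccnd1 had the highest level (248 TPM on day 2, 415 TPM on day 6, 226 TPM on day 18) and also fell (-0.85). Axin2, an inhibitor induced by β-catenin, had 2.76 TPM on day 2 and 3.46 TPM on day 18 and was not called (fitted log2 change 0.45, SE = 0.18, adjusted P = 0.0573, edgeR's quasi-likelihood test, Benjamini-Hochberg).

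Of 9 tested heparan sulfate proteoglycan cores, to which R-spondins and WNT proteins bind at the cell surface, 4 rose and 1 fell. Gpc6 rose by 1.59, Sdc4 fell by 0.92 and Sdc2 was the most abundant (107 TPM on day 2, 263 TPM on day 18). Among 9 relatives of Lrp5 and Lrp6 in the LDL receptor family, 4 rose and 4 fell. Lrp1b had the largest rise (3.54, at no more than 0.665 TPM), Lrp2 the largest fall (-7.29, from 7.49 to 0.0775 TPM), and Lrp1 the highest level and a fitted log2 change of -1.06. In all, 35 of the 87 tested genes of these 8 lists rose and 22 fell, with a median log2 change of 0.23.

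The cell type label was read against 10 osteoblast markers, of which 7 rose and none fell (edgeR's quasi-likelihood test, Benjamini-Hochberg). Bglap, the osteocalcin gene, went from 1.24 to 208 TPM between days 2 and 18, and Ibsp, bone sialoprotein, from 0.581 to 78.4 TPM. Runx2, the transcription factor that specifies osteoblasts, was between 42.0 and 65.7 TPM on all days. It was among those called higher, with a fitted log2 change of 0.49 (46.4 TPM on day 2, 62.0 TPM on day 18). Sp7, a transcription factor that acts after Runx2, was 32.3 TPM on day 2, 2.77 TPM on day 8 and 10.6 TPM on day 18, and Alpl, the bone alkaline phosphatase, was 9.13, 1.45 and 17.6 TPM on those days. Neither was called by the line, but the spline called both (edgeR's quasi-likelihood test, Benjamini-Hochberg adjusted P = 1.16e-05 for Sp7 and 0.00742 for Alpl). The same held for Spp1 (spline adjusted P = 0.000421, same test), which had 402 TPM on day 2, 1012 TPM on day 6 and 532 TPM on day 18. Sp7 was lowest on day 8, and Alpl was lowest on day 6 at 0.467 TPM.

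Markers of other cells also changed over the days, some lists higher and others lower. Of 7 macrophage markers 6 rose, with a summed level of 24.1 to 61.7 TPM on days 2 to 6 and 522 to 2014 TPM on days 14 to 18, and Ptprc, which marks all leukocytes, reached 2.23 TPM on day 18. Lyz2 alone had 19.9 TPM on day 2 and 1855 TPM on day 18. All 5 adipocyte markers rose, from a sum of 3.21 to 7.44 TPM to a sum of 188 to 407 TPM. Of 5 tested osteoclast markers 3 rose (37.6 to 86.0 TPM early, 208 to 217 TPM late), and Calcr and Dcstamp were at 0 on all days. Ctsk alone had 36.5 TPM on day 2 and 193 TPM on day 18. Of 3 tested endothelial markers 2 rose and 1 fell (3.24 to 4.10 TPM early, 8.87 to 12.1 TPM late), and of 4 tested chondrocyte markers 2 rose and 1 fell (106 to 129 TPM early, 99.8 to 128 TPM late). All 5 mural markers fell, with a sum of 5198 TPM on day 2 that was mostly Acta2 and of 876 TPM on day 18, and all 6 proliferation markers fell, from 324 to 388 TPM to 77.0 to 100 TPM.

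**Figure D5:**
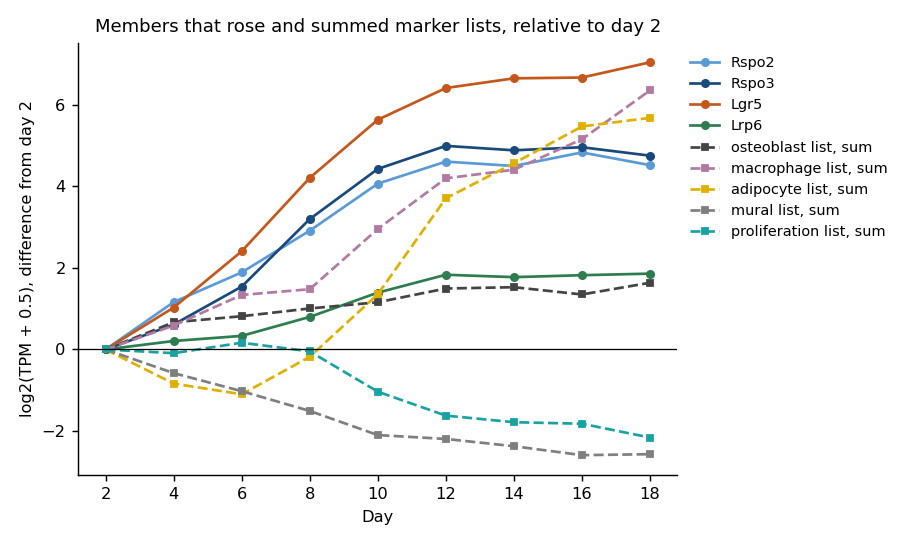
Difference from day 2 in log2(TPM + 0.5) (y axis) against day (x axis) for Rspo2, Rspo3, Lgr5 and Lrp6 (solid lines) and for the summed TPM of 5 marker lists (dashed lines), 1 library a day. From day 2 to day 18 the macrophage sum changed from 24.1 to 2014 TPM and the adipocyte sum from 7.44 to 407 TPM, while the mural and proliferation sums were lower on day 18 than on day 2.

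On day 8 Rspo3 was 78.2 TPM and Lgr5 20.7 TPM, and the marker sums were 6.51 TPM for adipocytes, 68.1 TPM for macrophages, 99.04 TPM for osteoclasts and 5.10 TPM for endothelial cells. A single gene made up most of the last 3 sums, with Lyz2 at 62.2, Ctsk at 93.2 and Tek at 4.35 TPM. Between days 12 and 18 Rspo3 changed from 273 to 231 TPM, Rspo2 from 27.3 to 25.6, Rspo1 from 3.50 to 6.91, Lgr5 from 97.0 to 150, Lrp5 from 36.1 to 50.5 and Lrp6 from 98.1 to 99.97. Over the same days the adipocyte sum changed from 103 to 407 TPM, the macrophage sum from 451 to 2014, the osteoclast sum from 182 to 212 and the endothelial sum from 12.0 to 8.87. Over days 2 to 12 alone, a choice made after the marker levels had been seen, the same 6 of the 10 genes rose and Lgr6 fell, against 23.1% of 15518 genes rising. Markers of other cells rose in that window too, with 4 of 4 tested adipocyte, 5 of 7 macrophage and 3 of 5 osteoclast markers called higher, and between days 2 and 12 the sums changed from 7.44 to 103, from 24.1 to 451 and from 37.6 to 182 TPM. In that fit the log2 change from day 2 to day 12 was 7.63 for Lgr5 (SE = 0.43), 5.47 for Rspo3 (SE = 0.38), 5.26 for Rspo2 (SE = 0.32), 4.26 for Rspo1 (SE = 0.65), 1.82 for Lrp6 (SE = 0.20) and 1.22 for Lrp5 (SE = 0.13).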

How the data were processed

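The estimated counts, TPM and FPKM deposited by the authors for 37991 genes are RSEM's output per lane profile; reads were aligned with Bowtie 0.12.9 to the NCBIM37 transcriptome, and RSEM 1.2.8 is the version in the submitters' processing notes. RNA had been amplified before library construction. The 10 genes, the lists and the tests were chosen with earlier results of these data known.

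Each profile's TPM was scaled to the mean upper quartile. Levels are means over 3 lanes. For tests, the estimated counts of 3 lanes were summed and rounded, and edgeR 4.0.16 (R 4.3.3) with upper-quartile factors and its expression filter set to 10 counts fitted a line, or a natural spline with 3 degrees of freedom, in day, tested by quasi-likelihood with Benjamini-Hochberg adjustment and called under 0.05. Ratios used exact permutation tests (scipy 1.17.1) with a pseudocount of 0.05 TPM, set because Rnf43 was 0 on day 8. The scripts were tested on simulated data. Depth was 22470195 to 62009157 counts a day; floors cover counting error only. Other genes were named by rule: the largest called rise and fall and the highest level of each list, marker genes, and the 2 nearest courses. Axin2, Wnt16, Axin1 and Tcf7l1 were chosen after their values were seen. DESeq2 1.42.0, limma 3.58.1 and other settings were alternatives. Replicate numbers are lanes and do not pair samples. p-values measure the scatter of 9 libraries, which may be technical.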

Additional observations from a re-analysis of the deposited data

How the results depend on the processing

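The rises of Rspo1, Rspo2, Rspo3, Lgr5, Lrp5 and Lrp6 held under every alternative that was run (TMM factors, DESeq2, limma on log2 TPM, other filters, early against late days, 27 profiles, each replicate or day left out, and days 2 to 12), and Lgr4, Znrf3 and Rnf43 stayed uncalled wherever they could be fitted. Of 443 recomputed values, 435 kept direction and side of the threshold or moved by less than the spread. The fall of Lgr6 was not called by DESeq2 (log2 change -2.77, adjusted P = 0.0970, Benjamini-Hochberg), by limma on log2 TPM (-1.74, adjusted P = 0.0720) or by edgeR for days 2 to 6 against days 14 to 18 (-2.25, adjusted P = 0.0851), without day 12 (-2.75, adjusted P = 0.0559) or without day 14 (-2.74, adjusted P = 0.0702), and without day 2 it reversed to 0.0404. The cause was not tested. Over its alternatives Lgr5 ranged from 5.55 to 12.2 and Rspo3 from 4.00 to 8.75. Both low ends are the difference between days 2 to 6 and days 14 to 18. Both high ends are the slope over days 2 to 12, scaled to 16 days, so the ends are unlike measures.

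As FPKM, which scales all genes down, the mean level was 6.84 for Lgr4 and 2.90 for Znrf3. Lgr6 could not be fitted at a minimum count of 50, nor Rnf43 there, in the 27-profile fits or without replicate 2 or 3. With 27 profiles in place of 9 libraries, edgeR called 10754 genes without and 10881 with a replicate block, against 8510. Lgr5 had a log2 change of 7.59 without and 7.63 with the replicate block. Once the mean of its day was taken from each profile's log2 CPM, same-numbered profiles of different days had a mean correlation of 0.00553. For differently numbered profiles of different days it was -0.00276. At this depth Rnf43 and the early days of Rspo1 rest on few counts.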
